A study of Mus musculus with 12 samples.

Results

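The genes Adamts3, Lynx1, 2610203C22Rik, Pcdh15, 1190007I07Rik and Polr3b were chosen because their RNA level was shifted in the same direction in neural stem cells lacking E12 and in those lacking E47. They are 6 of the 37620 genes in the count files, and all 6 were among the 14614 genes with enough reads to be tested in both lines. 3 of them (Lynx1, 2610203C22Rik and Polr3b) were higher in both knockouts and 3 (Adamts3, Pcdh15 and 1190007I07Rik) were lower in both. Because the shift itself chose them, their levels in knockout and wild type are given as a description without a test.

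RNA was sequenced from neural stem cells of C57BL/6J mouse embryos at E14.5, kept proliferating with 20 ng/ml of each of the growth factors FGF-2 and EGF. There were 4 groups of 3 libraries: E12KO cells (E12-/-), E12wt cells (E12+/+, from litter mates of the E12-/- embryos), E47KO cells (E47-/-) and E47wt cells (E47+/+, from litter mates of the E47-/- embryos). The labels give the deletion as present in the embryo and name no tissue restriction. Whether the 3 replicates stem from different embryos or cultures is not stated. By the Y-linked transcripts given below, E47wt replicate 2 was male and E47wt replicates 1 and 3 were female, so E47wt held different embryos. Within each other group all libraries were of the same sex, which cannot tell embryos apart. The p-values therefore measure only the spread between these libraries, which may be technical in part, or wholly so outside E47wt.

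The transcription factors E12 and E47, called E proteins, arise from the gene Tcf3 by alternative splicing and carry a helix-loop-helix domain. They bind as dimers to short DNA motifs called E-boxes (CANNTG) and partner with cell type specific factors that drive neural differentiation, while Id proteins hold them in inactive pairs. The 6 genes do not form a pathway. Adamts3 encodes a secreted protease that trims procollagen and is known to cut the signalling protein reelin. Lynx1 encodes a membrane-anchored protein of the Ly6 family that dampens nicotinic acetylcholine receptors. Pcdh15 encodes a protocadherin that forms the tip links of sensory hair cells together with Cdh23, and it is also widely used as a marker of oligodendrocyte precursors. Polr3b encodes a core subunit of RNA polymerase III, which makes transfer RNAs and other small RNAs. The human counterpart of 1190007I07Rik encodes a small mitochondrial protein needed for the assembly of respiratory complex III. 2610203C22Rik is annotated as a processed transcript without a protein.

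In the mouse reference GRCm38, Adamts3 lies on chromosome 5, Lynx1 on chromosome 15 and 2610203C22Rik on chromosome 1, whereas Pcdh15, 1190007I07Rik and Polr3b lie on chromosome 10, which also holds Tcf3. The files were made on another build, mm9, so places in this reference served only for gene order and sequence. Since E proteins bind E-boxes, the promoters of the genes were searched for CANNTG, which reads the same on both strands, in RefSeq windows of 300 bases (250 before to 50 after the start of the gene, build GRCm38.p6). 4 of the 6 genes matched the table, and Lynx1 and 2610203C22Rik were not used here. The promoters of Adamts3 (chr5:89883285-89883584, minus strand), also lower in the knockouts, and of Polr3b (chr10:84622048-84622347, plus strand), higher in the knockouts, held no match. Those of Pcdh15 (chr10:73821617-73821916, plus strand) and 1190007I07Rik (chr10:82623179-82623478, minus strand), both of them genes with lower levels in the knockouts, held 3 and 4 matches, and they are shown with each match in capitals.
Pcdh15: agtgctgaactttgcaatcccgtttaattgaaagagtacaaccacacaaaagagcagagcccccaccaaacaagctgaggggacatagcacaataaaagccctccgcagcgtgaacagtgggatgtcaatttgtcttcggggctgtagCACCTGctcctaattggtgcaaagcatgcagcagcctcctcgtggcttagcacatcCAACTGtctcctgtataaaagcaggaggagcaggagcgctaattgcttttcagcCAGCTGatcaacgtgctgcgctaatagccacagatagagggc
1190007I07Rik: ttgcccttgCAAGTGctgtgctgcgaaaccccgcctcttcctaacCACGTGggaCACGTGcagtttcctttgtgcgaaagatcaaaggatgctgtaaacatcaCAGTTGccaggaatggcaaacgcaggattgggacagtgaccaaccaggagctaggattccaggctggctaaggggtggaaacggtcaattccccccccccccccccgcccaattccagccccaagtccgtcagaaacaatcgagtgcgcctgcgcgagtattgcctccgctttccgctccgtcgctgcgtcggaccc

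The matches in the Pcdh15 window started at -102, -46 and 8 bases from the start of the gene, and those in the 1190007I07Rik window at -241, -205, -196 and -147. Forms of CANNTG often bound by E proteins are CAGCTG, and CAGGTG with its other-strand reading CACCTG. The Pcdh15 window held 1 match of each form and the 1190007I07Rik window held neither. Of the 32851 promoter windows in the table, 72.3% held CANNTG, 16.3% held CAGCTG and 20.2% held CAGGTG on either strand, with a median of 1 CANNTG per window. A match describes letters in the window and shows no binding.

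Each library held 34515297 to 56835783 gene reads, so that 3 reads correspond to 0.0528 to 0.0869 CPM (counts scaled to library size), and this counting floor covers counting error only. The CPM levels of genes given here are scaled further by a TMM factor per library, taken over all 12 libraries, of 0.977 to 1.045. All 8 neural stem cell markers (among them Sox2, Nes and Pax6) were above that floor in every group, with a summed level of 7340 to 8519 CPM. The library E47KO replicate 2 stood apart: the chi-square of its counts against the other E47KO libraries, divided by its degrees of freedom, was 115 and 214, against 12 to 40.9 for all other pairs within a group. Y-linked transcripts were found in all 3 E47KO libraries and in E47wt replicate 2, and were at background in the other 8 libraries, so the sex of the embryos differed between E47KO and most of E47wt. Counts per gene cannot separate the splice forms E12 and E47. Tcf3 as a whole averaged 88.7 ± 14.49 CPM in E12KO and 78.2 ± 3.55 CPM in E12wt, and 113.0 ± 5.15 CPM in E47KO and 85.5 ± 11.0 CPM in E47wt (SD, n = 3 each), with adjusted p-values of 0.605 and 0.971 in edgeR's quasi-likelihood test.

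Adamts3, the procollagen and reelin protease, was lower in both knockouts. It had 31.1, 25.9 and 22.9 CPM in the E12KO libraries (replicates 1 to 3), against 46.8, 46.5 and 49.3 CPM in E12wt. It had 23.4, 10.7 and 15.6 CPM in the E47KO libraries, against 37.2, 37.6 and 28.8 CPM in E47wt. In both lines every knockout library lay below every wild-type library, and E47KO replicate 2 was the lowest of all 12. The fitted log2 fold change was -0.83 ± 0.11 (SE) in the E12 line, a level at 56.1% of wild type, and -1.08 ± 0.28 in the E47 line, at 47.5% of wild type. Without E47KO replicate 2, the value in the E47 line was -0.84. Over the groups the mean level ran in the order E47KO, E12KO, E47wt and E12wt, where E47KO overlapped E12KO, E12KO overlapped E47wt, and E12wt stood clear of the others.

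Pcdh15, the tip-link protocadherin, was lower in both knockouts, with a wide spread between libraries. It had 12.6, 6.38 and 5.54 CPM in E12KO, against 19.3, 12.9 and 29.1 CPM in E12wt. It had 6.25, 10.8 and 6.31 CPM in E47KO, against 19.7, 10.8 and 15.1 CPM in E47wt. The groups touched: the closest pair of libraries was 12.55 CPM in E12KO against 12.92 CPM in E12wt, and 10.78 CPM in E47KO against 10.83 CPM in E47wt. When counts were scaled by library size alone, the E47KO and E47wt values of Pcdh15 overlapped. The log2 fold change was -1.32 ± 0.36 in the E12 line and -0.98 ± 0.30 in the E47 line. In the E12 line it lay between -1.77 without E12KO replicate 1 and -0.99 without E12wt replicate 3. In the E47 line it was -1.29 without E47KO replicate 2 and -0.50 with sex as a covariate. The only male E47wt library was the one at 10.83 CPM. Pcdh15 had the largest spread among libraries of 1 group of the 6 genes in E12KO and E12wt, with coefficients of variation of 46.97% and 39.9%. Its mean level ran in the order E47KO, E12KO, E47wt and E12wt, and each group overlapped the next.

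Among the marker lists of other cells that a culture may hold, the oligodendrocyte lineage list marks cells that also use Pcdh15. All 7 of its tested genes had a log2 fold change below 0 in E12KO against E12wt, with a median of -0.60 against 0.004 over all genes, though none was called. In E47KO against E47wt 4 of 7 were above 0, with a median of 0.059. The summed level of the list was 874.1 to 1106 CPM in E12KO and 967.3 to 1427 CPM in E12wt, and 1026 to 1264 CPM in E47KO and 928.6 to 1411 CPM in E47wt, and Mog, a marker of mature oligodendrocytes, was at or under the floor in all 4 groups. The neuron list had 1 of 7 tested genes above 0 in each line, with medians of -0.38 in E12KO against E12wt and -0.15 in E47KO against E47wt, and a summed level of 1122 to 1311 CPM in E12KO and 1162 to 1244 CPM in E12wt, and of 1040 to 1213 CPM in E47KO and 1178 to 1245 CPM in E47wt. The astrocyte list had 4 of 6 above 0 in the E12 line and 5 of 6 in the E47 line, with medians of 0.36 and 0.60 and a summed level of 942.2 to 1214 CPM in E12KO and 668.3 to 1098 CPM in E12wt, and of 806.8 to 1376 CPM in E47KO and 700.7 to 1105 CPM in E47wt. No gene of either list was called, the summed levels of both overlapped between knockout and wild type in both lines, and the part of any of these cells in the values of the 6 genes was not tested. In bulk RNA, fewer cells of a type and less RNA per cell cannot be told apart.

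1190007I07Rik was lower in both knockouts. The spread among the 3 libraries of a group was smaller in the knockouts than in the wild types, but counting error enters it at the few reads given below, and the difference in spread was not tested. The coefficients of variation were 10.5% in E12KO and 21.1% in E12wt, and 9.39% in E47KO and 12.9% in E47wt. Its level was 1.64, 1.33 and 1.497 CPM in E12KO, against 3.53, 2.30 and 3.03 CPM in E12wt. It was 1.41, 1.39 and 1.64 CPM in E47KO, against 2.89, 3.57 and 2.88 CPM in E47wt. The 6 knockout libraries together lay within 1.33 to 1.64 CPM and the 6 wild-type libraries within 2.30 to 3.57 CPM. The log2 fold change was -0.99 ± 0.21 in the E12 line and -1.08 ± 0.22 in the E47 line, a level at 50.4% and 47.2% of wild type, and it was -1.29 in the E47 line with sex as a covariate. These values rest on few reads, namely 182 in E12KO and 388 in E12wt, and 200 in E47KO and 408 in E47wt, summed over 3 libraries. In the reference, 8.5% of the 50-base words in its transcripts also occur in transcripts of other genes on the same strand, so a part of its reads may not be unique.

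Lynx1, the modulator of nicotinic receptors, was higher in both knockouts. It had 22.7, 22.5 and 24.5 CPM in E12KO, against 15.02, 13.9 and 12.3 CPM in E12wt. It had 26.2, 29.6 and 31.7 CPM in E47KO, against 23.1, 18.8 and 23.0 CPM in E47wt. The knockout stood clear of its own wild type in each line, but E47wt reached the level of E12KO, so the 4 groups do not split by genotype alone. The log2 fold change was 0.76 ± 0.10 in the E12 line and 0.42 ± 0.14 in the E47 line. With sex as a covariate it was 0.62 in the E47 line.

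Polr3b, the polymerase III subunit, had the smallest and most even shift. It had 49.96, 51.6 and 48.2 CPM in E12KO, against 40.6, 40.65 and 40.7 CPM in E12wt. It had 47.9, 51.3 and 55.2 CPM in E47KO, against 43.3, 40.8 and 41.6 CPM in E47wt. All 6 knockout libraries were above all 6 wild-type libraries. Among the wild types E47wt was above E12wt without overlap, but the closest libraries nearly touched, at 40.81 CPM in E47wt and 40.7 CPM in E12wt. The log2 fold change was 0.30 ± 0.06 in the E12 line and 0.28 ± 0.11 in the E47 line, a level at 123.1% and 121.5% of wild type. The spread in E12wt was 0.176% of the mean, the narrowest of any group and gene of the 6. With 5295 reads over these 3 libraries, counting error alone is larger than this spread, so no steadiness of the gene is read from it.

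2610203C22Rik had the largest fold of the 6 and rested on few reads. Its opposite-strand level, the strand of this kit that reports a gene's own transcripts, was 1.69, 2.83 and 2.78 CPM in E12KO, against 0.455, 0.513 and 0.416 CPM in E12wt. It was 1.97, 0.804 and 1.89 CPM in E47KO, against 0.463, 0.407 and 0.533 CPM in E47wt. In reads this was 68, 113 and 117 in E12KO and 21, 21 and 18 in E12wt, and 82, 29 and 105 in E47KO and 17, 19 and 25 in E47wt. The 6 wild-type libraries were all near 0.5 CPM and the knockouts ranged more widely, with E47KO replicate 2 the lowest of them. Both wild types overlapped each other, as did both knockouts. The log2 fold change was 2.39 ± 0.28 in the E12 line and 1.72 ± 0.39 in the E47 line, where it was 2.02 without E47KO replicate 2. The gene overlaps Adhfe1, Vxn and Gm6161 on the opposite strand, and both-strand counts there were as low as or lower than opposite-strand counts, at 50, 77 and 76 reads in E12KO and 21, 20 and 14 in E12wt. With both-strand counts the log2 fold change was 1.96 in the E12 line, lower than with opposite-strand counts, and 2.09 in the E47 line, where it was higher.

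**Figure D1:**
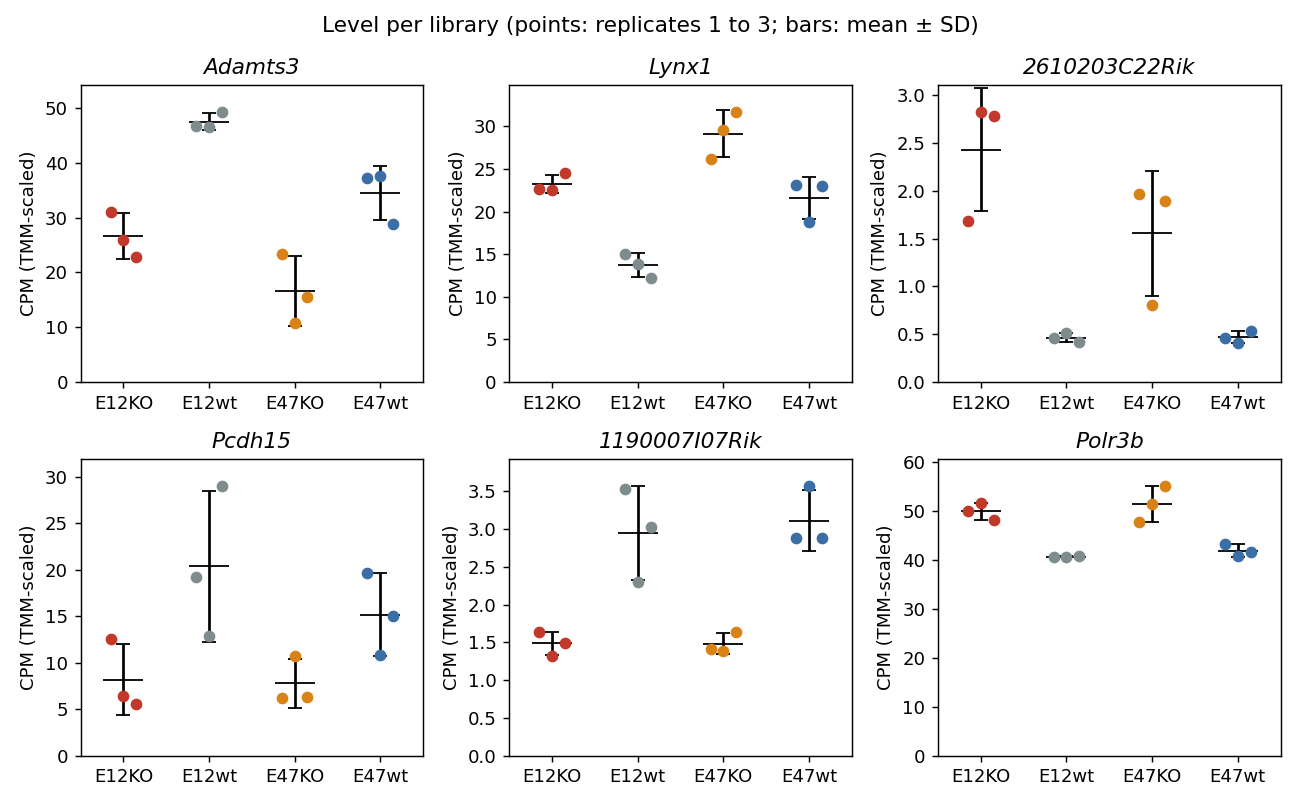
Level of each of the 6 genes in CPM (TMM-scaled, y axis from 0) in E12KO, E12wt, E47KO and E47wt; points are the 3 libraries of a group and bars the mean ± SD. Knockout points lie below wild-type points of the same line for Adamts3, Pcdh15 and 1190007I07Rik and above them for Lynx1, 2610203C22Rik and Polr3b, with Pcdh15 groups nearly touching (12.55 CPM in E12KO against 12.92 CPM in E12wt).

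All 6 genes were without overlap between knockout and wild type, in the same direction, in both lines. Of the 14614 genes tested in both lines, 0.773% met this (0.246% higher and 0.527% lower in both), and since the genes were chosen by it, nothing is read from their count. Within 1 line, 13.7% of genes had no overlap in E12KO against E12wt (6.77% higher and 6.95% lower) and 7.81% in E47KO against E47wt (4.74% higher and 3.07% lower). For the mean effect of both knockouts, 4 of 15277 genes were called (0.0262%). The sign of the log2 fold change was the same in both lines for 51.4% of genes. Ranked by the size of the mean effect of both knockouts among the 113 genes that met the criterion, 2610203C22Rik was at rank 2 (log2 2.05 ± 0.25), Pcdh15 at 5 (-1.15 ± 0.27), 1190007I07Rik at 6 (-1.04 ± 0.15), Adamts3 at 7 (-0.96 ± 0.16), Lynx1 at 25 (0.59 ± 0.09) and Polr3b at 70 (0.29 ± 0.06). Rank 1 was Gm9855 and rank 3 Tdg. The authors' deposited tables list 5 of the 6 genes, all but 2610203C22Rik. The authors' deposited table for the E12 line gives log2 fold changes of -0.84 for Adamts3, -1.32 for Pcdh15, -0.996 for 1190007I07Rik, 0.76 for Lynx1 and 0.30 for Polr3b. The authors' deposited table for the E47 line gives -1.06, -0.96, -1.07, 0.43 and 0.30 in the same order of genes.

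**Figure D2:**
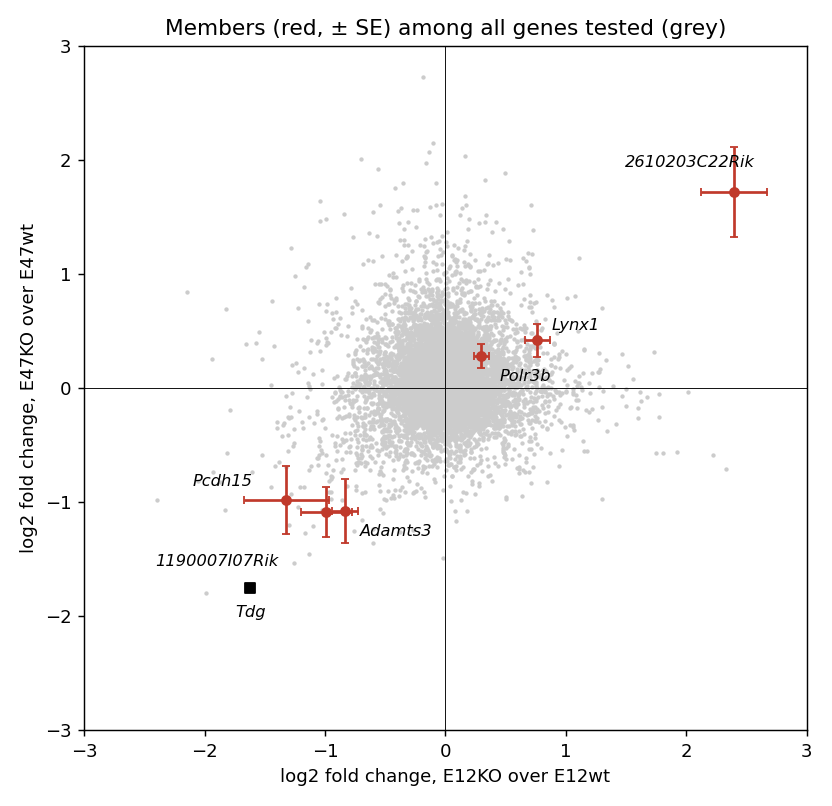
Log2 fold change of E12KO over E12wt (x axis) and of E47KO over E47wt (y axis) for genes tested in both lines (grey), for the 6 genes (red, ± SE) and for Tdg (black square); 10 of the 14614 genes lie outside the axes. The 6 genes lie in the upper right and lower left, from 2610203C22Rik (2.39 and 1.72) to Pcdh15 (-1.32 and -0.98), with Polr3b near the centre (0.30 and 0.28).

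The knockout effects of the lines differed by less than about 2 standard errors for each of the 6 genes. The E47 effect minus the E12 effect was -0.23 ± 0.32 (log2) for Adamts3, 0.34 ± 0.53 for Pcdh15, -0.09 ± 0.29 for 1190007I07Rik, -0.34 ± 0.17 for Lynx1, -0.01 ± 0.11 for Polr3b and -0.67 ± 0.49 for 2610203C22Rik. Over all 15277 genes tested, none was called for this difference (0%), 463 had an unadjusted p under 0.05 (3.03%) and DESeq2 called 1. The values of the 6 genes are a description, since a like shift in both lines was what chose the genes.

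The genes were not chosen on the contrasts between the lines, but the same libraries entered the choice, so these tests are not independent of it. Between E47wt and E12wt, Lynx1 was at 21.6 ± 2.46 CPM in E47wt and 13.7 ± 1.39 CPM in E12wt (SD, n = 3 each), a log2 fold change of 0.65 ± 0.12, and Adamts3 was at 34.5 ± 4.95 CPM in E47wt and 47.6 ± 1.53 CPM in E12wt, a log2 fold change of -0.46 ± 0.11. The unadjusted p-values were 0.000737 for Lynx1 and 0.00388 for Adamts3 in edgeR's quasi-likelihood test, and after Benjamini-Hochberg adjustment over all genes both were 1. No gene of 14892 was called there (0% at an adjusted p under 0.05), while 568 genes, 3.81%, had an unadjusted p under 0.05 and DESeq2 called 8. Lynx1 was among the genes DESeq2 called, with an adjusted p of 0.00826, and over all alternatives its adjusted p ranged between 0.00826 and 1. The log2 difference of Lynx1 between the wild types lay between its shifts in the E12 line (0.76) and the E47 line (0.42).

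For the other 4 genes, the log2 fold change of E47wt over E12wt was -0.43 ± 0.31 for Pcdh15 (between -0.67 without E12wt replicate 2 and -0.095 without E12wt replicate 3), 0.07 ± 0.21 for 1190007I07Rik, 0.04 ± 0.07 for Polr3b and 0.02 ± 0.26 for 2610203C22Rik, each with an adjusted p of 1. The libraries of E47wt and E12wt did not overlap for Lynx1, Adamts3 and Polr3b, 3 of the 6 genes, against 9.43% of all genes. For Polr3b the groups nearly touched, at 40.7 CPM in E12wt against 40.81 CPM in E47wt. As the same libraries entered the choice of the genes, nothing is read from this count. 10 of the 10 liver transcripts in a list chosen after the values were seen (Alb and Apoa1 among them) were also higher in E47wt than in E12wt, with a median log2 fold change of 1.77 and none called. Their summed level was 91.5, 119.3 and 129.4 CPM in the E47wt libraries, against 1.04, 50.74 and 55.97 CPM in the E12wt libraries, each set in rising order, and 1 E12wt library stood far below the others. Their part in the wild-type differences was not tested.

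Between the knockouts, E47KO against E12KO, none of the 6 genes was called, where 10 of 14826 genes (0.0674%) were. Adamts3 averaged 16.6 ± 6.41 CPM in E47KO and 26.6 ± 4.15 CPM in E12KO (SD, n = 3 each), at a log2 fold of -0.68 ± 0.28, with an adjusted p of 0.849 in edgeR's quasi-likelihood test. Lynx1 averaged 29.2 ± 2.76 CPM in E47KO and 23.2 ± 1.09 CPM in E12KO, at a log2 fold of 0.33 ± 0.12, and 2610203C22Rik 1.55 ± 0.65 CPM in E47KO and 2.43 ± 0.64 CPM in E12KO, at a log2 fold of -0.64 ± 0.38, each with an adjusted p of 0.849 as well. Pcdh15 (-0.07 ± 0.37), 1190007I07Rik (-0.00 ± 0.22) and Polr3b (0.05 ± 0.10) were near 0 on the log2 scale, with adjusted p-values of 0.965, 0.998 and 0.914. Only Lynx1 of the 6 had no overlap between the knockouts, against 11.1% of all genes. All E47KO libraries were male and all E12KO libraries female, so line and sex cannot be told apart in this comparison. The 10 liver transcripts were higher in E47KO here too, and 2 of them were called.

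**Figure D3:**
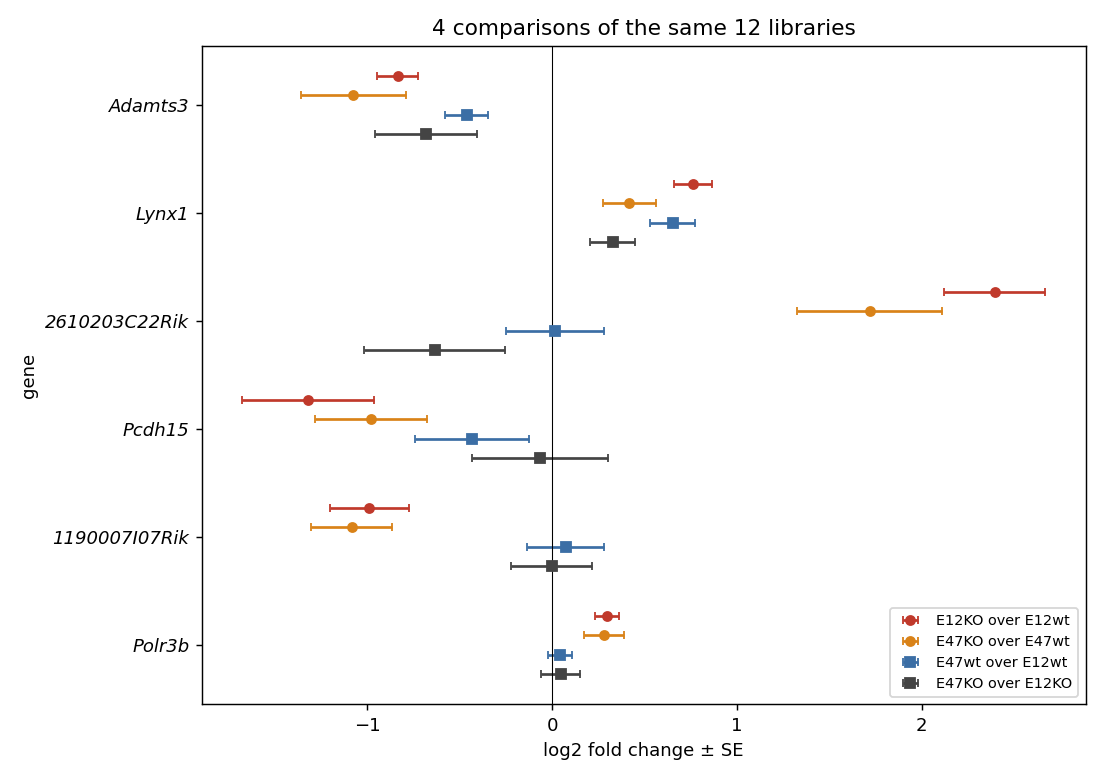
Log2 fold change ± SE (x axis) of each of the 6 genes in 4 comparisons: the knockouts over their own wild types (circles), and E47wt over E12wt and E47KO over E12KO (squares). The squares of 1190007I07Rik and Polr3b lie near 0, while the E47wt over E12wt squares of Lynx1 (0.65) and Adamts3 (-0.46) lie on the same side as their knockout effects.

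1190007I07Rik is the direct neighbour of Tdg on chromosome 10, on the opposite strand and with no annotated gene between them. Tdg, which encodes thymine DNA glycosylase, an enzyme of base excision repair, fell in both knockouts: it averaged 56.6 ± 2.35 CPM in E12KO and 174.9 ± 5.28 CPM in E12wt, and 53.9 ± 5.75 CPM in E47KO and 179.9 ± 4.11 CPM in E47wt (SD, n = 3 each). The log2 fold changes were -1.62 ± 0.06 and -1.75 ± 0.11, with adjusted p-values of 9.26e-06 and 0.00536 in edgeR's quasi-likelihood test. Gm9855, a processed pseudogene on the same chromosome that shares 76.5% of its 50-base words with Tdg transcripts, rose to 48.2 ± 1.45 CPM in E12KO, against 0.397 ± 0.077 CPM in E12wt, and to 48.3 ± 4.78 CPM in E47KO, against 0.438 ± 0.24 CPM in E47wt, with adjusted p-values of 7.3e-08 and 0.00222. Because of this shared sequence the division of reads between Tdg and Gm9855 is uncertain. Tdg and Gm9855 were the 2 genes called in E47KO against E47wt (0.0134% of 14965), and 6 genes were called in E12KO against E12wt (0.0407% of 14755). In E47KO against E47wt no gene was called without E47wt replicate 3, 1 was called without E47KO replicate 1 or without E47wt replicate 1, and 7 without E47wt replicate 2.

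The neighbours of the 6 genes, taken as the 10 annotated genes on each side in GRCm38, gave 35 genes tested in both lines. 2 of them, 5.71%, were without overlap in the same direction in both lines, against 0.773% of all genes, and these were Tdg and Ric8b. Ric8b, near Polr3b, encodes a chaperone of G protein subunits and had log2 fold changes of -0.12 ± 0.07 and -0.09 ± 0.10 in the E12 and E47 lines, opposite in sign to Polr3b, and was not called. No other neighbour was called in either line. The nearest tested neighbours of Polr3b were Tcp11l2, at -0.71 ± 0.19 and 0.24 ± 0.59, and Rfx4, a transcription factor of the neural tube, at 0.29 ± 0.11 and -0.04 ± 0.23. Those of Pcdh15 were Zwint (0.00 ± 0.06 and -0.18 ± 0.12) and the pseudogene Gm5778 (0.62 ± 0.31 and -0.04 ± 0.38), and on the side of 1190007I07Rik away from Tdg lay Gm4924 (-0.28 ± 0.13 and -0.37 ± 0.20). Next to Adamts3 were Gc (0.22 ± 0.72 and 0.17 ± 0.17) and the pseudogene Eif5al3-ps (0.49 ± 0.33 and -0.37 ± 0.34), and next to Lynx1 was Them6 (0.10 ± 0.21 and 0.20 ± 0.24).

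Between Pcdh15 and Polr3b, in a stretch that also holds Tcf3, 170 other genes were tested in both lines, of which 2, or 1.18%, were without overlap in the same direction in both lines, namely Tdg and Ankrd24. Ankrd24 had log2 fold changes of 0.19 ± 0.13 and 0.47 ± 0.17. Over all of chromosome 10, apart from the 3 genes, 7 of 659 tested genes met this, or 1.06%. Around Tcf3, shifts above 0 ran together in the E47 line, a stretch that was picked after the values were seen. Within 70 annotated genes of Tcf3, 77 of 86 tested genes had a log2 fold change above 0 in E47KO against E47wt, with a median of 0.23 against -0.005 over all genes, and 69 to 80 did, with medians of 0.175 to 0.314, when a library was left out. In E12KO against E12wt 52 of the 86 were above 0, with a median of 0.04. The 27 consecutive tested genes from Wdr18 to Tcf3 were all above 0 in the E47 line, and none of the 86 was called in either line. The reference has 269 annotated genes between Pcdh15 and Tcf3, 135 between Tcf3 and Tdg and 43 between Tdg and Polr3b. Chromosome 10 carried 4.68% of the tested genes that could be placed.

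**Figure D4:**
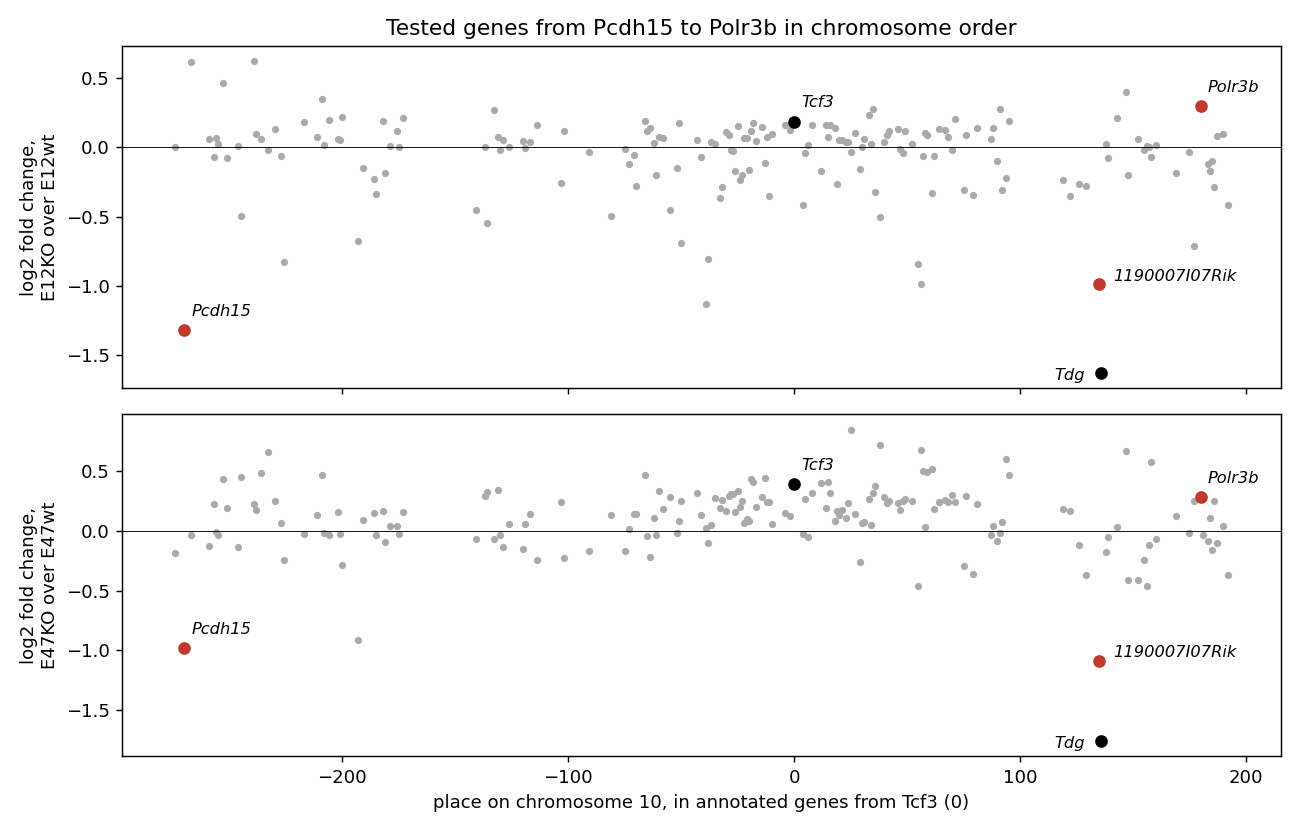
Log2 fold change of the tested genes of chromosome 10 from near Pcdh15 to beyond Polr3b in E12KO over E12wt (upper panel) and in E47KO over E47wt (lower panel), placed by the number of annotated genes from Tcf3 (x axis); red points are 3 of the 6 genes, black points Tcf3 and Tdg, grey points all others. 1190007I07Rik (-0.99 and -1.08) and Tdg (-1.62 and -1.75) lie side by side, far below the tested genes around them.

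Next to 2610203C22Rik, the overlapping gene Adhfe1 was at 54.7 CPM in E47KO replicate 2 and at 9.06 to 16.6 CPM in the other 11 libraries. Its log2 fold change was 0.08 ± 0.11 in the E12 line and 1.02 ± 0.60 in the E47 line, with adjusted p-values of 0.832 and 0.971. Vxn, the other coding gene on the opposite strand, averaged 2.25 ± 0.861 CPM in E12KO and 5.89 ± 4.45 CPM in E12wt, and 3.16 ± 0.756 CPM in E47KO and 4.93 ± 2.05 CPM in E47wt (SD, n = 3 each). E12wt replicate 3 was high for Vxn, at 11.0 CPM, as it was for Pcdh15.

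The known partners of the 6 genes, in lists of function, held few called genes. Among procollagen proteinases, their substrates and the reelin pathway, which are the partners of Adamts3, 0 of 13 tested genes rose and 1 fell in E12KO against E12wt, and 0 of 11 were called in E47KO against E47wt, with medians of 0.021 and -0.093 (log2) against 0.004 and -0.005 over all genes. The gene that fell was Col1a1, a fibrillar collagen chain, at -1.83 ± 0.18 in the E12 line with an adjusted p of 0.0105. The mesenchyme and meninges list, which holds Col1a1, had 3 of 5 tested genes called lower in that comparison, and its summed level was 9.38 to 10 CPM in E12KO and 12.4 to 17.4 CPM in E12wt, with Col1a2, Col3a1 and Lum at or under the floor in E12KO. In E47KO against E47wt 0 of 4 tested genes of this list were called, with a median of -0.52, and Col1a1 was at -1.07 ± 0.82. The summed level overlapped there, at 7.42 to 9.68 CPM in E47KO and 5.95 to 21.4 CPM in E47wt. The part of such cells in the values of Adamts3 and Col1a1 was not tested. Dab1, the intracellular adaptor of reelin signalling, was at -0.24 ± 0.08 in the E12 line and -0.41 ± 0.17 in the E47 line, without overlap in both, and was not called.

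For Lynx1, none of 8 tested Ly6 proteins and nicotinic receptors was called in E12KO against E12wt and none of 9 in E47KO against E47wt, with medians of -0.15 and 0.022. The best expressed receptor subunit, Chrna4, had log2 fold changes of -0.15 ± 0.10 and -0.13 ± 0.17, and Ly6e -0.15 ± 0.12 and 0.02 ± 0.19. For Pcdh15, none of 6 and 5 tested tip-link and Usher partners was called, and Cdh23, its partner in the tip link, averaged 0.222 CPM over all libraries. Cib2 had -0.50 ± 0.17 and 0.15 ± 0.27, and Whrn 0.00 ± 0.11 and 0.07 ± 0.22. Of the 10 non-clustered protocadherins, 7 were below 0 in E12KO against E12wt and 8 in E47KO against E47wt, with medians of -0.15 and -0.17, and none was called. The best expressed of them, Pcdh10 and Pcdh11x, had -0.19 ± 0.09 and -0.16 ± 0.10 in the E12 line and -0.05 ± 0.15 and -0.54 ± 0.12 in the E47 line.

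For Polr3b, 28 other subunits and factors of RNA polymerase III were tested, of which 15 were above 0 in E12KO against E12wt and 13 in E47KO against E47wt, with medians of 0.008 and -0.01 and none called. Gtf3c1 and Gtf3c4, subunits of the factor that recruits the polymerase to transfer RNA genes, had 0.12 ± 0.08 and 0.00 ± 0.06 in the E12 line and 0.08 ± 0.09 and -0.14 ± 0.15 in the E47 line. For 1190007I07Rik, 13 of 15 subunits and assembly factors of complex III were above 0 in E12KO against E12wt and 8 of 15 in E47KO against E47wt, with medians of 0.081 and 0.009 and none called. The best expressed, Uqcrc2 and Uqcrh, had 0.04 ± 0.06 and 0.06 ± 0.06 in the E12 line and -0.06 ± 0.11 and 0.01 ± 0.11 in the E47 line. In the base excision repair list only Tdg was called among 14 tested genes, in both lines, and none of the 7 E proteins and Id factors was, with Tcf12 at 0.00 ± 0.08 and -0.09 ± 0.09 and Tcf4 at 0.07 ± 0.08 and -0.02 ± 0.12.

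As a description of how the genes varied over the 12 libraries, each was correlated with 12587 genes on log2 CPM, where points share genotype, line and library. The most alike to Adamts3 were Gfod1 (Pearson r 0.957), Klhdc10 (0.953) and Prkg2 (0.946), and to Lynx1 they were Cdk2ap1 (0.922), Ccdc136 (0.917) and Mgmt (0.898). Pcdh15 was most alike to Gdap1 (0.976), Ptpre (0.959) and Ugdh (0.958), and 1190007I07Rik to its neighbour Tdg (0.954), Lrrc49 (0.884) and Akap7 (0.863). Gm9855 came first for both 2610203C22Rik (0.911, before Tmem79 at 0.892) and Polr3b (0.928, before 2610203C22Rik at 0.835 and Gse1 at 0.83). Among the 6 genes themselves, the r of Polr3b with 2610203C22Rik was -0.002 once group means were removed, and that of 1190007I07Rik with Polr3b was -0.883 over all libraries and 0.012 within groups. Pcdh15 and 2610203C22Rik were the pair most related within groups, at -0.681, against -0.849 over all libraries. In E47KO replicate 2, which stood apart, and in E12KO replicate 1, Pcdh15 was the highest of its group and 2610203C22Rik the lowest. The value without these libraries was not computed.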

How the data were processed

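For the 12 stranded mRNA libraries, the submitters' processing notes name STAR 2.5, build mm9, DESeq and DESeq2. The counts the authors deposited are whole numbers of reads per gene for both strands, the sense strand and the opposite strand; the opposite strand held 97.1 to 97.2% of strand-assigned reads and was used. The deposited tables of the authors' own comparisons also hold normalized signal, log2 fold changes, a score and p-values; only their log2 fold changes are printed. Unassigned rows, 14.2 to 17.5% of reads, were left out. Of 37620 IDs, 32897 were named from GRCm38 and 10 from the deposited tables.

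Counts were tested with edgeR 4.0.16 in R 4.3.3 (quasi-likelihood F test, low-count filter by group, TMM, two-sided, Benjamini-Hochberg; called at an adjusted p under 0.05), each comparison on its own 6 libraries, and the mean effect and the difference of effects on all 12. Fold changes carry a prior count of 0.125, and the code was tested on simulated data. DESeq2 1.42.0 was an alternative, beside other scaling, filters, strands, a replicate block, a sex covariate and leaving out each library. Likeness was computed on log2 CPM (prior count 2) for genes with a mean of at least 1 CPM. Same-numbered E47KO and E47wt libraries deviated together (correlations 0.119, 0.23 and 0.467), but replicate 1 did not match its own number best. E47wt and E12wt, which are of different lines, gave 0.067, 0.277 and 0.302. No label pairs the libraries, so a pairing is not settled. The members, lists and naming rule (the 6 genes, Tcf3, Tdg, Gm9855, the 3 most alike genes, the nearest tested and any called neighbours, and from each list up to 4 called genes or else the 2 best expressed) were chosen with earlier results of these data known; the choice of any other named gene followed a look at its values. The rule also names 1 gene that is not reported here. Promoter sequences are RefSeq's (GRCm38.p6).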

Additional observations from a re-analysis of the deposited data

Results flagged for a closer look

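At 2610203C22Rik, E47KO replicate 2 had 443 reads on the sense strand, a column that no comparison uses, against 93 to 153 such reads in the other 11 libraries. With this kit, that column takes in reads of transcripts from the other strand, where Adhfe1, Vxn and Gm6161 overlap the gene. Which transcripts gave the 443 reads was not tested. The same library had 29 opposite-strand reads there, the fewest of the knockout libraries, and 54.7 CPM of the overlapping gene Adhfe1.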

How the results depend on the processing

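The direction of all 6 genes in both lines held under every alternative run, but the genes were chosen for this direction. As knockout and wild type did not overlap, leaving out a library could not turn it, so those runs say nothing about it. Under other scalings and with both-strand counts all 6 were without overlap, except with no scaling beyond library size, where 5 were; leaving out a library cannot create an overlap and says nothing about this count. The share of all genes without overlap in both lines was 0.773%, and 0.951 to 2.57% with a library left out, where fewer libraries leave fewer overlaps. The share among neighbours was 9.09% for 5 and 3.17% for 20 genes on each side. It was 2 genes each time, of 22 and 63 tested, so only the number tested changed. In E12KO against E12wt 6 genes were called, but 20 without a filter, 98 by DESeq2, 2 with all 12 libraries in 1 fit and 2 to 10 with a library left out (2 without E12KO replicate 2 or 3, 10 without E12wt replicate 3). In E47KO against E47wt 2 were called, but 6 by DESeq2, 1 with a sex covariate and 0 to 7 with a library left out. In E47wt against E12wt DESeq2 called 8 against 0. In E47KO against E12KO 10 were called, but 17 without a filter, 68 by DESeq2, 5 with the replicate block and 5 to 20 with a library left out (20 without E47KO replicate 2); a sex covariate could not be fitted. For the difference of effects DESeq2 called 1 and leaving out a library gave 0 to 1. For the mean effect 4 were called, but 57 by DESeq2, 2 with the replicate block, 2 with a sex covariate and 2 to 4 with a library left out. The block left 4 and 2 calls in the E12 and E47 lines. Same-numbered libraries of the other comparisons did not all correlate above 0.1, and a pairing by number was not settled for any comparison. Signs turned in E47wt against E12wt for 2610203C22Rik (-0.53 with both strands, -0.086 to 0.104 with a library left out) and 1190007I07Rik (-0.046 with a sex covariate, -0.078 to 0.228 with a library left out), and in E47KO against E12KO for Pcdh15 (-0.38 to 0.39 with a library left out) and 1190007I07Rik (-0.082 to 0.071). The cause of these changes in calls and signs was not tested. Below about 0.09 CPM a level rests on fewer than 3 reads.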
